A study of Homo sapiens with 12 samples.

Results

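HMGA1, HMGA2, IGF2BP1, IGF2BP2, IGF2BP3, ARID3B and PRTG are described targets of the let-7 microRNAs and are best known from embryonic and fetal tissue and from tumours in which they return. These 7 genes were taken by name from the platform annotation, with earlier results of the same arrays known, and stand among 19775 genes measured. They are read by 24 probe sets, and no probe set that names one of them names a further gene. The genes, and LIN28A beside them, were chosen on their levels in these lines, so the levels are a description here and carry no test.

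RNA came from 4 untreated human ovarian cancer lines, with 3 Affymetrix U133 Plus 2.0 arrays each: IGROV1, SKOV3, TOV112D (titled T112D) and TOV21G, all described as parental. IGROV1, TOV112D and TOV21G grew in RPMI medium and SKOV3 in DMEM, so medium and line cannot be told apart for SKOV3, and serum was added to both. Values are log2 expression levels after robust multi-array averaging (RMA), in which a step of 1 is a doubling and the median of all values is 4.44. Whether the arrays within a group represent independent cultures is not stated, so SDs and p-values cover only how far these arrays scatter, possibly for technical reasons alone, and their number limits the precision.

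The labels were checked against marker genes. ERBB2, amplified in SKOV3 as that line is usually described, was lowest in the arrays labelled SKOV3, at 8.14 ± 0.09 (SD, n = 3) against 8.48 to 9.01 in the other lines. The group is therefore called the arrays labelled SKOV3. Epithelial markers were not shared by all lines: EPCAM read 12.17 in IGROV1 against 3.41 in the arrays labelled SKOV3, KRT18 was at 5.01 in TOV112D against 11.37 or more, and MUC16 was at 3.01 or less everywhere. In the arrays labelled SKOV3, 2 of 9 listed were called higher, KRT8 (11.75) and KRT18 (12.62), each read by 1 _x_at probe set. There PAX8, EPCAM, KRT7, KRT19 and CDH1 were called lower (5 genes, with 6.53% of all genes higher and 8.01% lower). Calls were 7 higher in IGROV1 (7.20%), 7 lower in TOV112D (7.64%), and 2 higher and 2 lower in TOV21G (7.09% and 5.15%). Of 8 measured pluripotent cell markers, 4 were called higher in the arrays labelled SKOV3, namely NANOG, SOX2, SALL4 and PRDM14 (6.53% of all genes were called higher there, by the rule given with the target list below). The log2 values of the 8 markers summed to 56.75 to 57.06 on those arrays and to 36.14 to 39.59 on the others, while ZFP42 and L1TD1 stayed at 2.37 and 4.10 there. DPPA4 was at 3.28 on its _x_at probe set, but 232985_s_at read 3.72 there against 2.16 to 2.23 elsewhere, and without _x_at probe sets DPPA4 was also called higher, which made 5 markers. Endothelial markers, of which 3 of 5 were called higher, summed to 28.18 to 28.85 on the arrays labelled SKOV3 and to 17.76 to 20.93 elsewhere. PECAM1 entered that sum by 1559921_at (4.97), whereas 208982_at put it at 8.59 against 3.71 to 3.94 elsewhere, and with the mean of probe sets 4 of the 5 were called higher. Fibroblast markers (7 genes) summed highest in TOV112D, at 59.88 to 61.33, then in the arrays labelled SKOV3, at 43.11 to 43.81, against 27.81 to 33.33 in the other lines. In TOV112D, COL3A1, LUM, DCN and THY1 were called higher (4 genes) and COL1A2, at 3.73, lower (1 gene), where 7.03% and 7.64% of all genes were. COL1A1 and PDGFRB were not called there. In the arrays labelled SKOV3 they also went both ways, with COL1A1, THY1 and PDGFRB called higher (3 genes) and COL3A1, LUM and DCN lower (3 genes). The 4 leukocyte markers summed to 12.20 to 14.45 on all arrays, and the single call among them was PTPRC in TOV112D, at 4.58. These levels move with the results below, and so does the medium; their part in them was not tested.

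let-7 microRNAs are scarce in early embryonic cells and accumulate as cells differentiate. A mature let-7 guides an Argonaute protein to messages that carry a match to its seed, usually in the 3' untranslated region, which lowers their translation and stability. LIN28A and LIN28B bind let-7 precursors and block their maturation, often by recruiting an enzyme that adds uridines to them, so that targets such as HMGA2 and the IGF2BP genes are released. The arrays measured the messages, and mature let-7 was not measured.

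The let-7 family is shown first because a shared seed is what makes these genes common targets. The sequences are those of RefSeq (GRCh38.p14), 5′ to 3′, with the seed (bases 2 to 8) in capitals.
let-7a: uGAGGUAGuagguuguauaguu
let-7b: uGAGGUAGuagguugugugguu
let-7c: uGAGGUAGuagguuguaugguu
let-7d: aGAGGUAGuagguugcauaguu
let-7e: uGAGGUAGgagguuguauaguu
let-7f: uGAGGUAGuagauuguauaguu
let-7g: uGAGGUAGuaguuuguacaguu
let-7i: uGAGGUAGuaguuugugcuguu
miR-98: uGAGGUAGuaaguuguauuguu
Every line carries the seed GAGGUAG, which pairs with CTACCTC in a target read as DNA. The members differ only outside it.

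LIN28 proteins contact precursors at a GGAG in the stretch between the arms, so 4 hairpins are printed to show one family member of each kind. Capitals mark the GGAG nearest the 3′ arm; a hairpin with no capitals holds none between its arms.
let-7g: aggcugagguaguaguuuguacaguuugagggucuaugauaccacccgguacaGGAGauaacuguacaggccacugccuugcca
let-7a-2: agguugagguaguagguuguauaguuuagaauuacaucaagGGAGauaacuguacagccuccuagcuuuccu
let-7a-3: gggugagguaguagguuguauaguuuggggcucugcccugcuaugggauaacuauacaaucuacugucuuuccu
let-7b: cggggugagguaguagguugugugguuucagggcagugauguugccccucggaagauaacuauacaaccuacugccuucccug
The hairpins lie at chr3:52268278-52268361 (minus strand, within the bounds of WDR82), chr11:122146522-122146593 (minus strand, within MIR100HG), chr22:46112749-46112822 and chr22:46113686-46113768 (both plus strand, within MIRLET7BHG). Searched on the RNA strand alone, GGAG stood between the arms of 8 of 11 let-7 and miR-98 hairpins (72.7%). RefSeq holds 12 let-7 and miR-98 hairpins, and let-7f-2, listed with a single mature arm, was left out of this count. miR-4500, which carries the same seed, was neither printed nor counted with the family. The 3 without the motif were let-7a-3, let-7b and miR-98. Of 51 other human hairpins with 23 to 36 bases between the arms, the range of the family, 9 held it (17.6%). A match is a feature of the letters and shows no binding.

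LIN28A differed more between the lines than LIN28B or any of the 7 genes. Its 3 arrays read 12.07, 12.03 and 12.37 in the arrays labelled SKOV3, then 7.12, 7.14 and 7.17 in TOV21G, 2.73, 2.83 and 3.12 in IGROV1, and 2.20, 2.53 and 2.05 in TOV112D. It was thus very high in one group, intermediate in TOV21G and near the floor of the scale in IGROV1 and TOV112D. No 2 neighbouring lines overlapped. LIN28B, the paralogue, read 10.83, 10.76 and 10.88 in the arrays labelled SKOV3. In TOV112D it read 8.53, 8.47 and 8.51, but 2.58 in the median array of TOV21G and 2.33 in that of IGROV1. The arrays labelled SKOV3 therefore had both LIN28 genes, TOV21G had LIN28A, TOV112D had LIN28B, and IGROV1 had both near the floor. LIN28B was called higher in the arrays labelled SKOV3, by 6.35 ± 0.06 over the average of the remaining lines (SE, limma, adjusted p = 4.1e-15). TOV112D exceeded its own comparison by 3.26 ± 0.06 (limma, adjusted p = 6.9e-13).

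**Figure D1:**
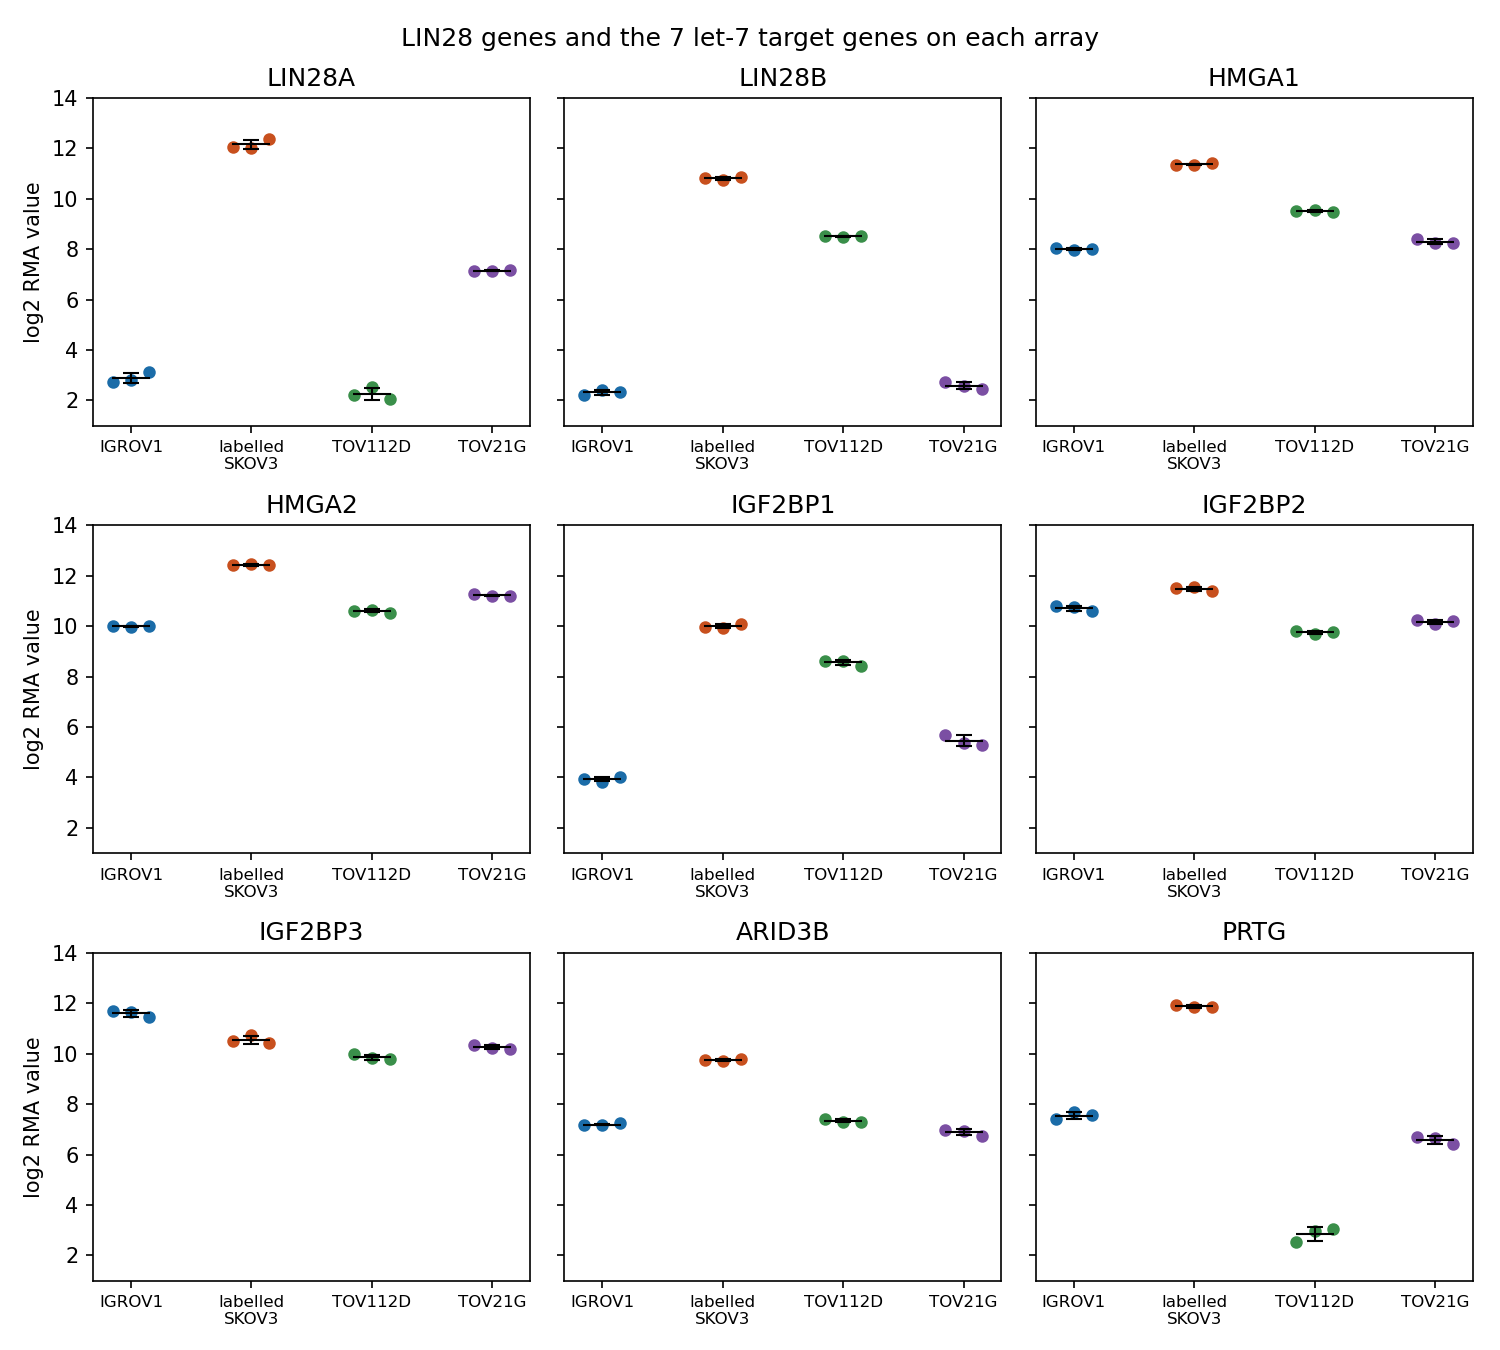
Log2 RMA value of LIN28A, LIN28B and the 7 let-7 target genes, each by its brightest probe set, on the 3 arrays of each line (points), with the line mean and SD (bars). The arrays labelled SKOV3 are highest for 6 of the 7 genes, and IGROV1 is highest for IGF2BP3.

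The 7 genes were highest in the arrays labelled SKOV3 with 1 exception. For HMGA1, HMGA2, IGF2BP1, IGF2BP2, ARID3B and PRTG, all 3 of those arrays lay above the other 9. IGF2BP3 was highest in IGROV1, where all 3 arrays lay above the other 9. Over all genes, 12.2% had the arrays labelled SKOV3 above the rest and 13.2% had IGROV1 above the rest; the choice of the genes used these levels, so nothing is read from the counts. The lowest line varied: all 3 arrays of IGROV1 lay below the rest for HMGA1, HMGA2 and IGF2BP1 (10.0% of all genes), those of TOV112D for IGF2BP2, IGF2BP3 and PRTG (10.2%), and those of TOV21G for ARID3B (8.78%). In cultured lines, as in any bulk sample, fewer expressing cells and less RNA per cell cannot be told apart.

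HMGA1 and HMGA2 encode small chromatin proteins that bind AT-rich DNA through AT-hook motifs, and HMGA2 is the best studied let-7 target, with several sites in its message. HMGA1 (206074_s_at) read 11.36, 11.35 and 11.40 in the arrays labelled SKOV3, then 9.52, 9.55 and 9.48 in TOV112D, 8.40, 8.24 and 8.23 in TOV21G, and 8.06, 7.98 and 8.01 in IGROV1. The lines formed 4 separate levels, with TOV21G and IGROV1 close together and the arrays labelled SKOV3 10.2-fold above IGROV1. The second HMGA1 probe set (210457_x_at, a type open to cross-hybridisation) gave the same order with means of 7.42, 5.64, 5.32 and 5.31, and there TOV21G and IGROV1 overlapped.

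HMGA2 (208025_s_at) read 12.42, 12.48 and 12.43 in the arrays labelled SKOV3, then 11.26, 11.19 and 11.22 in TOV21G, 10.62, 10.66 and 10.54 in TOV112D, and 9.99, 9.99 and 10.02 in IGROV1. It was well above the median of all values in every line and 5.44-fold higher at the top of this order than at the bottom. HMGA2 has 9 probe sets, and the other 8 did not give this order. On 1558683_a_at TOV112D was highest at 7.22 ± 0.10, above 5.69 ± 0.07 in the arrays labelled SKOV3, 4.75 ± 0.08 in TOV21G and 4.73 ± 0.21 in IGROV1. TOV112D also led on 1558682_at (6.83 ± 0.18) and 1561633_at (7.47 ± 0.09), again with all 3 arrays above the other 9, while 1567224_at overlapped between lines. In all, 7 of the 9 probe sets had their highest mean in TOV112D, among them 1567223_at, 1568287_at and 1568286_at, which stayed at 3.18 or below in every line. The annotation names the gene for each probe set but not the part of the message it reads. With the mean of all 9, HMGA2 was 0.84 higher in TOV112D than in the mean of the other 3 lines and 0.21 higher in the arrays labelled SKOV3, against -0.61 and 1.83 with the brightest alone. HMGA2 then led in TOV112D, and 5 of the 7 genes in place of 6 had their highest mean in the arrays labelled SKOV3.

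**Figure D2:**
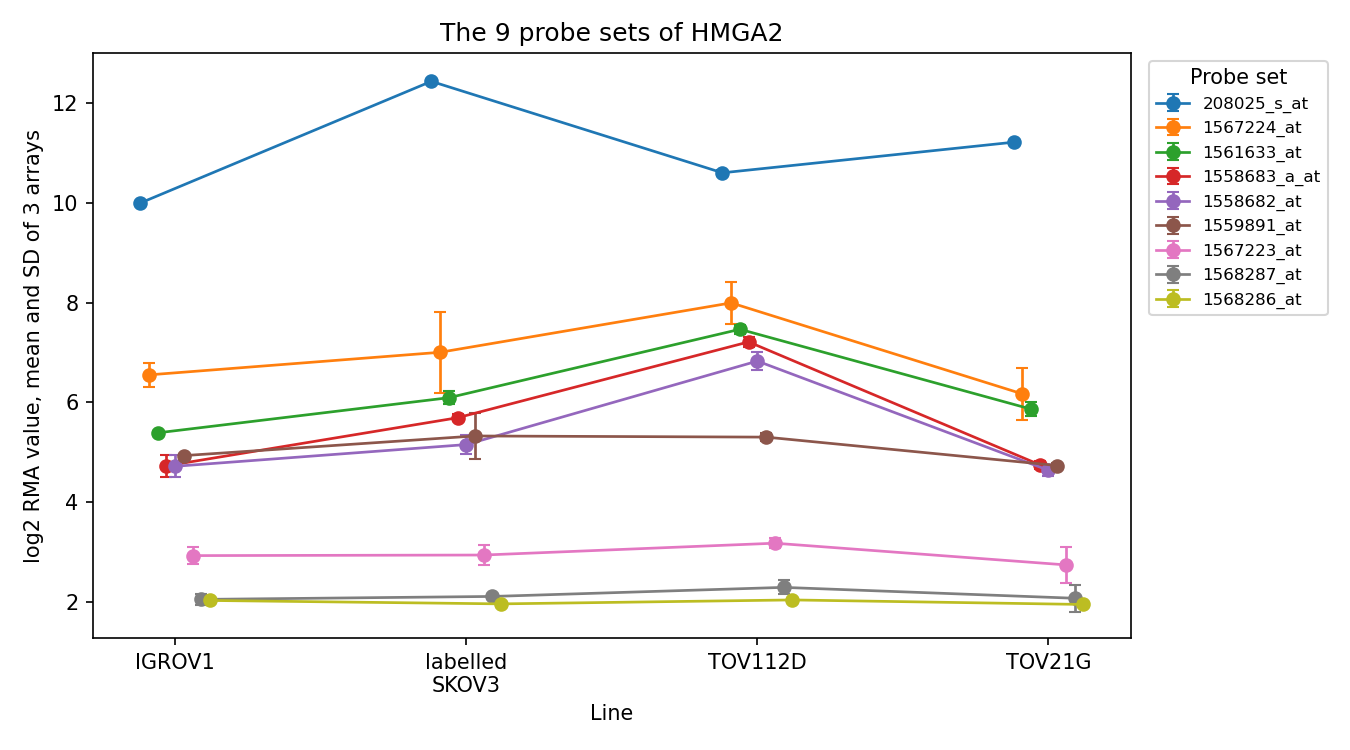
Log2 RMA value (vertical axis) of the 9 probe sets that name HMGA2 in the 4 lines (horizontal axis), as means with SD over 3 arrays; lines join the values of a probe set and carry no order. The brightest, 208025_s_at, peaks in the arrays labelled SKOV3 at 12.44, and the 4 next in brightness peak in TOV112D.

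IGF2BP1, IGF2BP2 and IGF2BP3 encode RNA-binding proteins that stabilise messages such as those of growth factors and MYC; IGF2BP1 and IGF2BP3 are largely shut off after birth, while IGF2BP2 persists in adult tissue. The 3 paralogues had 3 different patterns. IGF2BP1 (227377_at) read 9.99, 9.92 and 10.08 in the arrays labelled SKOV3, then 8.62, 8.63 and 8.44 in TOV112D, 5.69, 5.38 and 5.28 in TOV21G, and 3.94, 3.84 and 4.0 in IGROV1. It was the IGF2BP gene that differed most, by 6.07 between the highest and the lowest line, and IGROV1 lay below the median of all values. Its other probe sets kept the order without overlap: 223689_at had means of 8.54, 8.03, 5.57 and 4.24, and 241574_s_at of 6.63, 4.34, 3.60 and 3.20.

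IGF2BP2 (218847_at) spanned less. Its arrays read 11.51, 11.56 and 11.40 in the arrays labelled SKOV3, then 10.80, 10.76 and 10.60 in IGROV1, 10.24, 10.07 and 10.19 in TOV21G, and 9.81, 9.70 and 9.77 in TOV112D, a range of line means of 1.73. Neighbouring lines did not overlap on it. On 223963_s_at, whose means were 5.92, 5.17, 4.72 and 4.56 in the same order, TOV21G and TOV112D did overlap.

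IGF2BP3 (203819_s_at) read 11.70, 11.66 and 11.45 in IGROV1, 10.50, 10.73 and 10.42 in the arrays labelled SKOV3, then 10.34, 10.23 and 10.20 in TOV21G, and 9.98, 9.81 and 9.80 in TOV112D. It was thus highest in the line with both LIN28 genes near the floor, and the line means spanned 1.74. The probe sets 203820_s_at and 216493_s_at also put IGROV1 first, at 11.35 ± 0.03 and 9.05 ± 0.32. The arrays labelled SKOV3 and TOV21G overlapped on 203820_s_at, at 10.31 and 10.19. A further probe set, 1569033_at, stayed between 3.09 and 3.22 in all lines.

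ARID3B encodes a DNA-binding protein of the ARID family that works in early development, and its single probe set separated the arrays labelled SKOV3 from the rest. Those arrays read 9.76, 9.73 and 9.81, TOV112D 7.42, 7.29 and 7.31, IGROV1 7.16, 7.18 and 7.23, and TOV21G 6.97, 6.94 and 6.74. The other 3 lines lay within 0.46 of each other, and the arrays labelled SKOV3 were 7.36-fold above TOV21G.

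PRTG encodes protogenin, an immunoglobulin-domain cell surface receptor of the embryonic nervous system and paraxial mesoderm, and it had the widest range of the 7 genes. PRTG (229073_at) read 11.94, 11.86 and 11.84 in the arrays labelled SKOV3, then 7.40, 7.68 and 7.55 in IGROV1, 6.71, 6.66 and 6.41 in TOV21G, and 2.54, 2.96 and 3.03 in TOV112D. TOV112D, the line with LIN28B and little LIN28A, was near the floor. The probe sets disagreed on the middle of the order: on 229178_at TOV21G (6.10 ± 0.04) lay above IGROV1 (5.59 ± 0.22), which is the order of LIN28A. On the dim probe set 1562590_at only the arrays labelled SKOV3 stood apart, at 5.07 ± 0.27 against 3.50 to 3.52.

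Set beside LIN28A line by line, none of the 7 genes had its full order of lines on the brightest probe set; 3.77% of all genes have that order. IGF2BP1 and HMGA1 followed the order of LIN28B, with the arrays labelled SKOV3 first, then TOV112D, TOV21G and IGROV1; 4.87% of all genes have that order of means. HMGA2 had TOV21G second, as LIN28A does, but TOV112D above IGROV1. The lower end of each LIN28 order rests on values near the floor. LIN28A was at 2.89 in IGROV1 and 2.26 in TOV112D, and LIN28B at 2.57 in TOV21G and 2.33 in IGROV1. HMGA2 departs from the LIN28A order only at that end. On the brightest probe sets, with the arrays labelled SKOV3 set aside, HMGA1, IGF2BP1 and ARID3B were highest in TOV112D and HMGA2 in TOV21G. IGF2BP2, IGF2BP3 and PRTG were then highest in IGROV1, the line without either LIN28 gene above the floor. On 229178_at, however, PRTG was at 6.10 in TOV21G and 5.59 in IGROV1. The dimmer probe sets of HMGA2 all had a higher mean in TOV112D than in TOV21G. The 4 lines are too few for a correlation, and none is given.

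Genes most like each target were found by the root mean square difference between line means over the 4 lines, after each gene was centred on its own mean. The candidates were 13008 genes with a probe set not ending in _x_at and a line mean at or above the median of all values, and the 2 genes spanning under 2 were left out. IGF2BP1 was closest to RAB31 (0.29), TIAM1 (0.35) and SLC7A3 (0.46). HMGA2 was closest to PLCXD1 (0.05), PTPRD-AS1 (0.06) and SPRY4-IT1 (0.10), and HMGA1 to JAKMIP2 (0.11), RNF128 (0.11) and BEND6 (0.13). ARID3B was closest to WNK4 (0.10), GFOD1 (0.12) and LINC00545 (0.13). For PRTG the nearest genes were farther off, namely SIPA1L2 (1.03), NES (1.06) and SEMA6A (1.07). LIN28A was closest to SPARC (0.88), ZNF595 (1.16) and TGFBI (1.32), and PRTG ranked 41 among genes by likeness to it, with a difference of 2.09. SPARC, which encodes a matrix-binding glycoprotein, had line means of 11.50 in the arrays labelled SKOV3, 6.80 in TOV21G, 3.88 in TOV112D and 3.04 in IGROV1, against 12.16, 7.15, 2.26 and 2.89 for LIN28A. RAB31, a vesicle transport GTPase gene, had line means of 11.01, 10.28, 7.07 and 5.63 in the order of lines that IGF2BP1 showed. LIN28B stood at rank 201 by likeness to IGF2BP1, with a difference of 1.42: it shares the order of lines, but its TOV21G mean was near the floor while that of IGF2BP1 was 5.45. Likeness here favours genes of equal span.

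Other described let-7 targets were then tested from a list that leaves out the 7 genes: 30 of 34 were measured here. In the arrays labelled SKOV3, 14 of the 30 were called higher and 3 lower against the average of the remaining lines (a call needs a limma adjusted p below 0.05 together with a 2-fold difference), where 6.53% of all genes were called higher and 8.01% lower. The median difference was 0.78 over the list and -0.02 over all genes. In IGROV1, 2 were called higher and 11 lower, where 7.20% and 7.10% of all genes were, with a median difference of -0.49 against -0.01. TOV112D had 3 higher and 8 lower (7.03% and 7.64% of all genes), and TOV21G had 8 higher and 6 lower (7.09% and 5.15%). The balance in TOV21G turned with the scaling, to 6 higher and 9 lower with arrays centred on their median, and to 6 and 8 with quantile normalization; centring moved the median difference of all genes in that line from 0.01 to -0.12, and its calls over all genes from 1403 higher and 1018 lower to 1197 and 1257. The comparisons share arrays: a gene high in 1 line lowers the difference of every other line. A gene called higher in a line need not be highest there. Without the arrays labelled SKOV3, a choice made after the data were seen, IGROV1 had 7 calls in place of 13 and TOV21G 9 in place of 14.

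TRIM71, a ubiquitin ligase of early embryonic cells whose homologue is the classic let-7 target of worms, read 11.84, 11.84 and 11.82 in the arrays labelled SKOV3 and had means of 3.88, 3.11 and 2.75 in TOV112D, IGROV1 and TOV21G. It exceeded the mean of the others by 8.58 ± 0.12 (SE, limma, adjusted p = 6e-14). NR6A1, a nuclear receptor of germ and stem cells, was higher there by 4.98 ± 0.12 (adjusted p = 4.8e-12), with a mean of 10.28 against 5.90 or less. The cyclin gene CCND2 reached 11.93 ± 0.02 for the arrays labelled SKOV3 against 10.01 ± 0.08 in TOV21G, the groups with LIN28A, and 6.23 ± 0.08 in TOV112D and 3.12 ± 0.19 in IGROV1. IGF1R, the receptor for insulin-like growth factors, also had the arrays labelled SKOV3 first (9.82) and TOV21G second (6.94), with 4.22 in TOV112D and 3.71 in IGROV1.

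Several listed targets did not share that pattern. The kinase gene CDK6 was at 10.65, 9.92 and 9.36 in TOV21G, TOV112D and the arrays labelled SKOV3 and at 4.14 in IGROV1, a difference of -5.83 ± 0.08 for IGROV1 (limma, adjusted p = 5.1e-14). IL6, an inflammatory cytokine, was at 11.05 in TOV21G and 7.38 in IGROV1 but at 4.24 in TOV112D, with the arrays labelled SKOV3 lowest at 3.99. THBS1, a matrix glycoprotein gene, was at 11.13 in TOV21G, 8.95 in the arrays labelled SKOV3, 6.56 in IGROV1 and 3.26 in TOV112D. CDK6, THBS1 and IRS2 are among the 14 called higher in the arrays labelled SKOV3, yet TOV21G had a higher mean for each. For IRS2 these means were 10.29 in TOV21G and 9.92 in the arrays labelled SKOV3. With the mean of probe sets, CDK6 and THBS1 were not called there, while NAP1L1 was called higher. The list then had 13 higher and 2 lower, where 1056 and 1259 of all genes were.

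**Figure D3:**
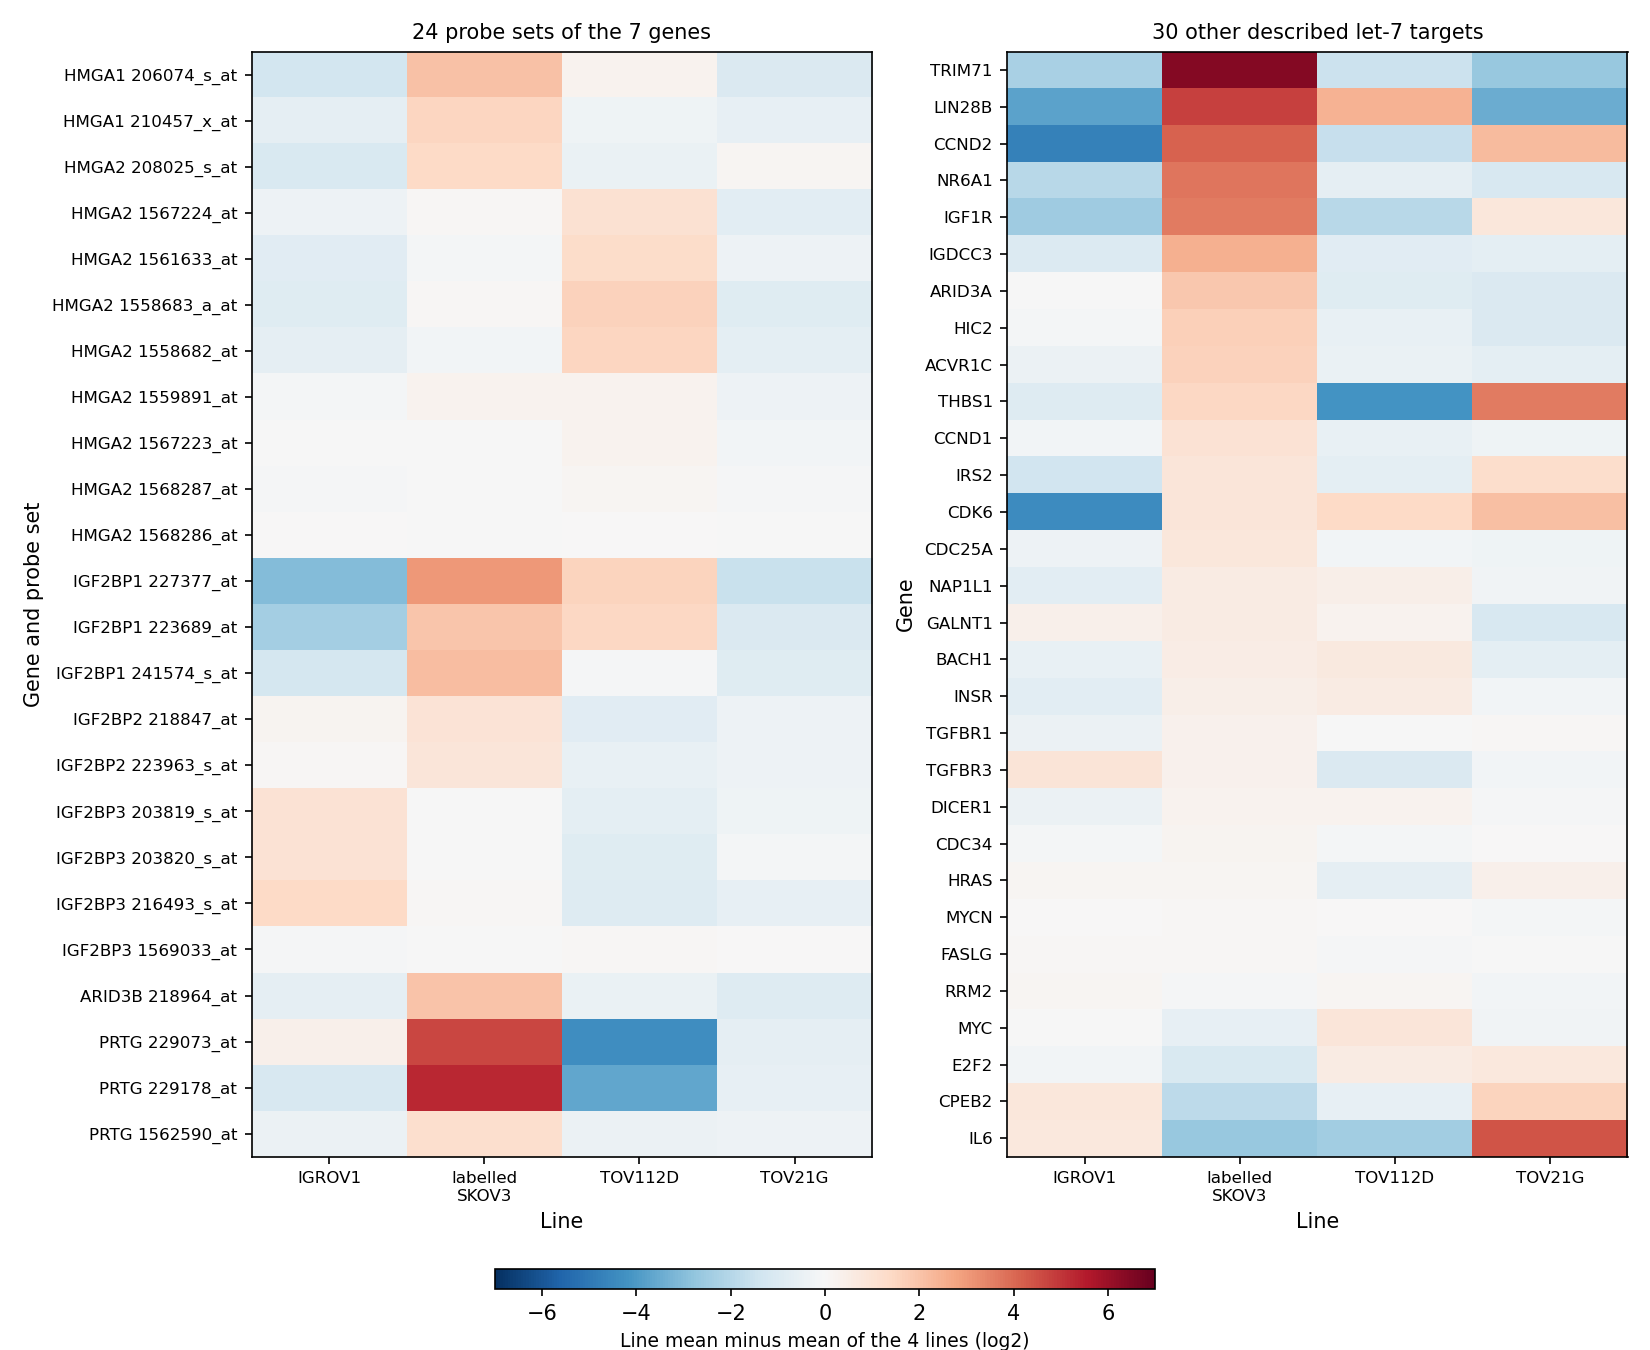
Line mean minus the mean of the 4 lines (log2, colour), for the 24 probe sets of the 7 genes (left) and the 30 other let-7 targets measured (right, ordered by the arrays labelled SKOV3). TRIM71 and LIN28B top the right panel in the arrays labelled SKOV3 and IL6 is at its foot; on the left, the rows of HMGA2 split between the arrays labelled SKOV3 and TOV112D.

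Close relatives of the 7 genes were measured for 5 of 6 listed. ARID3A, the paralogue of ARID3B and also a listed let-7 target, reached 9.28 ± 0.08 in the arrays labelled SKOV3, higher by 2.49 ± 0.08 (SE, limma, adjusted p = 3.3e-11). IGDCC3, a relative of PRTG, was at 8.55 ± 0.04 there and at 5.13 to 5.38 elsewhere (difference 3.29 ± 0.10, adjusted p = 2.6e-11). IGDCC4 instead was highest in TOV21G (7.34 ± 0.08), and NEO1 in TOV112D (8.48 ± 0.12). DCC, of the same receptor family, stayed at 2.61 or below in all lines. In the arrays labelled SKOV3, ARID3A and IGDCC3 were the 2 called higher among the 5, and 0 were called lower (6.53% and 8.01% of all genes); both genes are also among the 30 targets counted above. IGROV1 had 0 higher and 2 lower (7.20% and 7.10% of all genes). TOV112D (7.03% and 7.64%) and TOV21G (7.09% and 5.15%) each had 1 higher and 2 lower. In TOV21G centring and quantile normalization each gave 3 lower.

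Besides LIN28A and LIN28B, the list of 8 let-7 control genes holds other factors that act on the precursors. TUT4 and TUT7, which add uridines to precursors held by LIN28, TENT2, the exonuclease DIS3L2 that degrades uridylated precursors, KHSRP and HNRNPA1 gave no call in any line on their brightest probe sets. With the mean of probe sets, HNRNPA1 was called lower in IGROV1 and in no other line, where 1090 of 19775 genes were called lower in IGROV1. HNRNPA1 ran from 10.27 in IGROV1 to 11.29 for the arrays labelled SKOV3 on its brightest probe set, and from 6.69 in IGROV1 to 8.51 in TOV112D on 222040_at. TUT4 ranged from 7.38 in TOV21G to 7.94 in TOV112D, and TUT7 from 6.86 in the arrays labelled SKOV3 to 7.94 in IGROV1. On the dimmer 242776_at, TUT7 was at 5.63 in IGROV1 against 3.27 to 3.89 elsewhere. Of 15 measured genes of microRNA processing and Argonaute complexes, 1 was called lower in IGROV1, the precursor exporter XPO5 (8.03 ± 0.05, difference -1.27 ± 0.05, limma, adjusted p = 4.8e-10), and 1 higher in TOV112D, TNRC6C (7.50 ± 0.04, difference 1.36 ± 0.08, adjusted p = 1.6e-08). No call was made for the arrays labelled SKOV3 or TOV21G. Over all genes, 7.10% were called lower in IGROV1 and 7.03% higher in TOV112D, so 1 of 15 (6.67%) is near the share of all genes. With the mean of all probe sets of a gene, the calls of XPO5 and TNRC6C were lost, while AGO1 (1 gene) was called higher for the arrays labelled SKOV3, with AGO3 and TNRC6B (2 genes) lower for TOV21G. Centring the arrays gave 1 call in TOV21G, AGO1 lower.

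Host genes, whose transcripts span let-7 hairpins, were measured for 6 of 9 listed. MIR100HG, which spans let-7a-2, read 8.12, 8.24 and 8.17 in TOV21G and was at 2.07 to 2.19 in the other lines, a difference of 6.03 ± 0.08 (SE, limma, adjusted p = 6.7e-14). It was called lower in each other line because the mean of the others holds TOV21G. Its second probe set, 241975_at, stayed at 1.84 to 2.12 in all lines, TOV21G included, and with the mean of probe sets it was not called in TOV112D. MIRLET7BHG, which spans let-7a-3 and let-7b, read 5.21, 5.62 and 4.39 in the arrays labelled SKOV3 and had means of 5.78, 6.26 and 6.26 in IGROV1, TOV112D and TOV21G. It was lower in the arrays labelled SKOV3 by 1.03 on the log2 scale (difference -1.03 ± 0.18, adjusted p = 0.00034). That call was lost without replicate 3, with the mean of its probe sets, with centred arrays and with quantile normalization. On its second probe set, 1557342_a_at, IGROV1 was highest (6.26), while both TOV21G and the arrays labelled SKOV3 were at 5.09. MIR99AHG, which spans let-7c, was low throughout, from 2.99 in IGROV1 to 4.67 in TOV112D, and was called lower in IGROV1 (difference -1.28 ± 0.10, adjusted p = 2e-07), a call lost with the mean of its probe sets. On their brightest probe sets, HUWE1 (12.75 to 12.89), WDR82 (10.53 to 10.996) and SPACA6 (4.37 to 5.01) spanned under 2-fold and gave no call. For HUWE1 that is 207783_x_at, of the type open to cross-hybridisation. Of its 5 probe sets, 236294_at ran from 4.44 in TOV21G to 5.88 in TOV112D, and 208598_s_at from 9.26 to 10.00 in the same lines. A host transcript's level does not give the level of the mature microRNA.

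**Figure D4:**
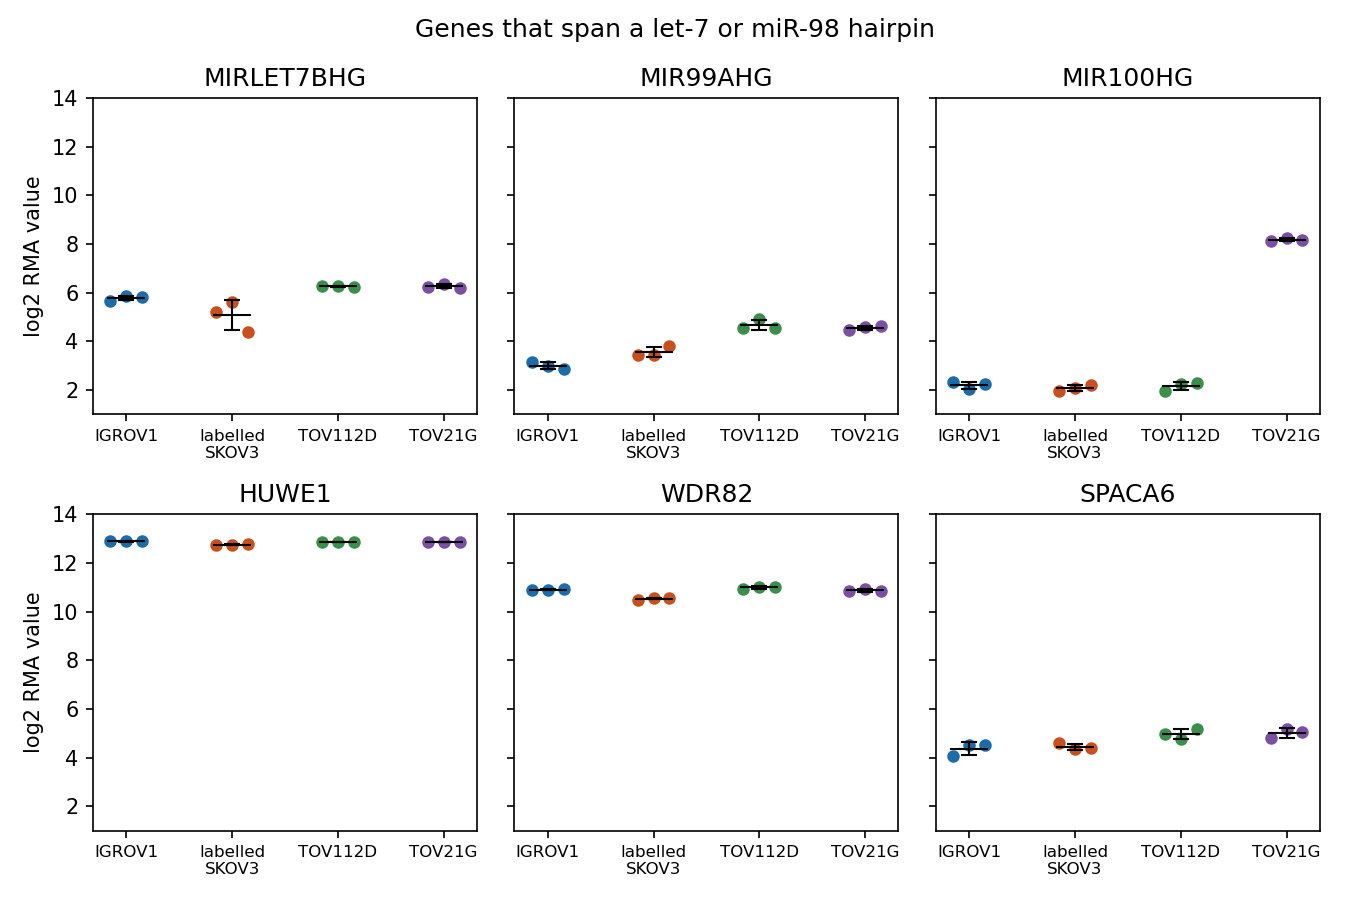
Log2 RMA value of 6 genes that span a let-7 or miR-98 hairpin, each by its brightest probe set, on the 3 arrays of each line (points) with the line mean and SD (bars). MIR100HG is at 8.17 in TOV21G and near 2 in the other lines. HUWE1 and WDR82 are level on the probe sets shown.

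Among transcripts described as bound by IGF2BP proteins, 9 of 12 listed were measured. In the arrays labelled SKOV3, 2 of the 9 were called higher (CD44 and LEF1) and 1 lower (ABCB1), where 6.53% and 8.01% of all genes were; with the mean of all probe sets, LEF1 was not called. TOV112D had 3 higher and 2 lower (7.03% and 7.64% of all genes). IGROV1 (7.20% and 7.10%) and TOV21G (7.09% and 5.15%) each had 2 higher and 1 lower. In IGROV1 the call of CD44 was lost when its probe sets were averaged. CD44, a hyaluronan receptor gene, was at 10.36 to 11.06 in all lines but TOV112D, where it was at 2.21 ± 0.22. MYC was highest in TOV112D (11.15 ± 0.06) and lowest in the arrays labelled SKOV3 (9.71), where IGF2BP1 and IGF2BP2 were highest. ACTB and CTNNB1 gave no call in any line.

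Other genes of fetal tissue known to return in tumours were measured for 8 of 12 listed. In the arrays labelled SKOV3, 5 of the 8 were called higher and 0 lower (6.53% and 8.01% of all genes). IGROV1 (7.20% and 7.10%) and TOV112D (7.03% and 7.64%) each had 0 higher and 4 lower, and TOV21G had 2 higher and 3 lower (7.09% and 5.15%). With the mean of probe sets, DLK1 was not called in these 3 lines, nor GPC3 in TOV21G. The 5 were AFP, the fetal albumin-like protein gene (7.96 ± 0.12), the glypican gene GPC3 (8.15 ± 0.11), DLK1 (7.88 ± 0.06), SALL4 (9.46 ± 0.08) and PLAC1 (5.88 ± 0.08). SALL4 is also among the pluripotent cell markers above. AFP, DLK1 and SALL4 were at 5.62 or less in every other line, and AFP was higher in the arrays labelled SKOV3 by 4.05 ± 0.08 (SE, limma, adjusted p = 8.7e-13). GPC3 was also high in TOV21G (7.35 ± 0.11). PEG10 was highest in TOV21G (12.63 ± 0.10) and lowest in TOV112D (9.27 ± 0.10).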

How the data were processed

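The authors deposited a single table of log2 values, covering 12 arrays and 54675 probe sets. The submitters' processing notes name RMA and affy; for their version, and for a genome build, the sources used here give nothing. RMA quantile-normalizes arrays, so a difference in total RNA cannot be seen, and no detection calls were used: levels near 2 to 3 lie at the floor, and differences from them depend on it.

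Arrays were assigned to lines by title. Genes were named from the platform annotation with current RefSeq symbols (GRCh38.p14, used only for names, neighbours and the printed miRNA records). Of the probe sets, 41091 with 1 gene gave 19775 genes, each represented by its brightest probe set on average. limma 3.58.1 in R 4.3.3 fitted all 12 arrays together with a mean for each line (eBayes, 8 residual degrees of freedom), with each line against the mean of the other 3 and Benjamini-Hochberg adjustment over all genes. Calls required both adjusted p < 0.05 and an absolute log2 difference reaching 1. On simulated data with 50 genes at each log2 change of 1.5, 2, 3 and 4, at least 49 were recovered in each comparison, with 0 false calls. Unchanged genes had equal means in all lines there, and each change exceeded the 2-fold cutoff. The simulation therefore checks the fit and gives no error rate for these data.

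The members, gene lists and rules were chosen with earlier results of these data known. In lists of over 12 genes, up to 4 called genes per line with the largest differences were named; shorter lists could be named in full. For likeness, the 3 nearest genes were taken for genes spanning at least 2. MYCN, IRS2, NAP1L1, AGO1, AGO3, TNRC6B and the dimmer probe sets of DICER1 were named after their values were seen. Some listed genes are not analysed here. Alternatives were the mean of probe sets, no _x_at probe sets, no dim genes, centring, quantile normalization, another prior, a replicate block, each array left out, and the arrays labelled SKOV3 left out.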

Additional observations from a re-analysis of the deposited data

How the results depend on the processing

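Of the 7 genes, 6 stayed highest in the arrays labelled SKOV3 without _x_at probe sets, with centring, with quantile normalization and with each array left out; with the mean of all probe sets 5 did, HMGA2 being the exception. Under each of these, 0 of 7 had the full order of LIN28A. Counts of all genes called stayed within 1.5 times under every alternative. So did the counts of other let-7 targets called, except without the arrays labelled SKOV3, where IGROV1 had 7 calls and TOV21G 9. There TRIM71 and IGDCC3 in TOV112D turned to 0.95 and 0.01, and NR6A1 in TOV21G to 0.18. Without probe sets ending in _x_at, MYCN turned to -2.19 in IGROV1 and -2.54 in TOV112D, because another probe set then stood for it. With single arrays left out, the targets called numbered 11 to 13 in IGROV1, 17 in the arrays labelled SKOV3, 11 to 12 in TOV112D and 12 to 14 in TOV21G, and all genes called 2810 to 2838, 2854 to 2910, 2887 to 2914 and 2408 to 2449. Little pairing by replicate number was seen. Deviations of same-numbered arrays correlated above 0.1 in 2 of 18 pairs, with a median correlation of 0.03. Those of differently numbered arrays did so in 1 of 36 pairs, with a median of -0.01. With the replicate block the counts of genes called were 2828, 2874, 2901 and 2421, as without it. Each line holds every replicate number once, so the block leaves the line differences unchanged, and equal counts say nothing on pairing. The 3 arrays per line and values near the floor limit the precision of dim genes.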

Other observations

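MYCN, a described let-7 target that encodes a transcription factor of embryonic and neural progenitors, depended on which of its 10 probe sets stood for it. The brightest on average, 211377_x_at, was level at 5.16 to 5.36 in the 4 lines and gave no call. The probe set 209757_s_at was at 10.24 ± 0.02 (SD, n = 3) in the arrays labelled SKOV3 while the other lines had 2.98 ± 0.09 (IGROV1), 2.71 ± 0.15 (TOV112D) or 2.54 ± 0.30 (TOV21G). With probe sets ending in _x_at left out it stood for the gene, and the difference of the arrays labelled SKOV3 from the mean of the others was 7.49. The other 8 probe sets were at 4.68 or below in every line.

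DICER1, which cuts let-7 precursors and is itself a described let-7 target, has 6 probe sets. It gave no call on the brightest, at 8.75 in IGROV1, 9.38 in the arrays labelled SKOV3, 9.42 in TOV112D and 9.09 in TOV21G. On 213229_at it was at 6.35, 8.59, 8.64 and 7.55 in the same lines, and on 206061_s_at at 4.69, 6.77, 6.88 and 5.81. All 3 gave the same order, with IGROV1 lowest, and differed in the size of the gap.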
